A study of Mus musculus with 9 samples.

Results

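Low-methylated CpG-poor bins are stretches of 500 bp that carried an intermediate level of CpG methylation in mouse embryonic stem cells (ESCs) while the DNA on both sides was highly methylated. They were chosen from whole genome bisulfite sequencing (WGBS) tables by values in these tables. A bin needed 4 to 14 CpGs with at least 5 reads in each of the 3 genotypes, a mean methylation of 10% to 50% in wild type (WT) ESCs, and at least 70% in WT in both flanking bins, which lie from 500 to 1000 bp beyond its edges. This rule found 9605 bins among 1311591 bins with 4 to 14 such CpGs in each genotype (0.732%), on 13 whole chromosomes and the part of chromosome 4 that the 3 tables share. Without the condition on the flanks, 27222 bins were at 10% to 50% in WT, and 15679 of these had both flanking bins covered and at least 1 of them under 70%.

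The cells were J1 ESCs, a line of mouse strain 129S4/SvJae, with the genotypes wild type, *Dnmt3a*-/- (*Dnmt3a* KO) and *Dnmt3b*-/- (*Dnmt3b* KO). All were grown on gelatin in medium with serum and leukemia inhibitory factor. Each genotype was sequenced as 3 libraries, and the deposited table of a genotype holds the merged reads of its 3 libraries. Every value below is thus 1 pooled value per genotype without a replicate error, and no test between genotypes was possible. Whether a KO line is a single clone is not given in the sources used here. Intervals are 95% Wilson intervals of the share of methylated reads. They cover counting error only, as reads are not always independent molecules, and say nothing of the variation between cultures.

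In mammalian genomes most CpGs outside CpG islands are methylated. Short stretches of reduced methylation far from promoters often lie at distal regulatory elements such as enhancers and insulators, where bound transcription factors keep methylation low and where TET enzymes oxidize methylated cytosine. DNMT3A and DNMT3B are the enzymes that set new methylation, whereas DNMT1 copies it after replication. Bisulfite sequencing reads 5-methylcytosine and 5-hydroxymethylcytosine alike as unconverted, so that a level given here is the sum of both. No chromatin mark or factor binding is part of these tables, and a role of the bins as enhancers was not tested.

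The sequences below are examples from these bins. They were read from the mm9 reference (plus strand), with matches to letter runs in capitals. The first pair holds the central 300 bp of the bins near *Mybl2* (chr2:162874101-162874400) and *Sall4* (chr2:168605601-168605900), which are named below. In that of *Mybl2* the capitals mark the SOX letters CATTGT on both strands, and in that of *Sall4* the GC box letters GGGCGG. The window near *Mybl2* holds 1 CpG and the window near *Sall4* holds 8.
Mybl2 bin: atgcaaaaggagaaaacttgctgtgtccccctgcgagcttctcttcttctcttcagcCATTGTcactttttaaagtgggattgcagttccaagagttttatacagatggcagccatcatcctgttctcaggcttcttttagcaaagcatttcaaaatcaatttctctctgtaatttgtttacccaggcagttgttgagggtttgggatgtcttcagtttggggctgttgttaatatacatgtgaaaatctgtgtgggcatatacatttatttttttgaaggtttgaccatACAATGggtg
Sall4 bin: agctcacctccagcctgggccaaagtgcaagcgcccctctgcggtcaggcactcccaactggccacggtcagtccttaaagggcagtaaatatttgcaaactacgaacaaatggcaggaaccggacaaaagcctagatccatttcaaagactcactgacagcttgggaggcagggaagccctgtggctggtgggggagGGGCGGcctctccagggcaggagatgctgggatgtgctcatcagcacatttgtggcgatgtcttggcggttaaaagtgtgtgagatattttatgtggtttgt

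The following 120 bp windows come from bins with the letters of the RE1 element, the site of the neuronal repressor REST, which are CAGCACC, any 2 bases and GGACAG. They are the 3 bins nearest to a protein-coding start site among the 23 with at least 100 reads in each genotype that passed the check on unmethylated CpGs described below, with 1 chromosome not shown, and were chosen after values had been seen. They lie near *Vwc2l* (chr1:70772292-70772411), near *Celf3* (chr3:94281881-94282000), which codes for a neuronal splicing factor, and near *Npas4* (chr19:4992504-4992623), a transcription factor gene induced by neuronal activity. Capitals mark the RE1 letters, which run on the minus strand near *Vwc2l* and *Npas4*.
Vwc2l bin: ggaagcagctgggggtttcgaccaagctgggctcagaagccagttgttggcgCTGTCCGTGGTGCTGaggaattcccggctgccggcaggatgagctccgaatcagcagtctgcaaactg
Celf3 bin: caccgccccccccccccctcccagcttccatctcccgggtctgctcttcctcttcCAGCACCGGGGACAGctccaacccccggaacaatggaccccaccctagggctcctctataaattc
Npas4 bin: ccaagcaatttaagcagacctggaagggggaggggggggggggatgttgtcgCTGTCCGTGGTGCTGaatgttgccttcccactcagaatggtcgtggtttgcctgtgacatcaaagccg

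The last windows come from bins with letters of the insulator protein CTCF. They are the 3 nearest to a start site, chosen in the same way, among 71 bins that hold both the core AGNNGGCGC and a longer run of CC, any 3 bases and AGGGGGC. They lie near *Dgcr6* (chr16:18052857-18052976), *Ppy* (chr11:101964001-101964120), the gene of pancreatic polypeptide, and *Nrp2* (chr1:62747878-62747997), which codes for a semaphorin receptor. Capitals mark every match of either run inside the window, on either strand, and where both runs match they share letters. In the window near *Nrp2* only the core is seen, on the minus strand.
Dgcr6 bin: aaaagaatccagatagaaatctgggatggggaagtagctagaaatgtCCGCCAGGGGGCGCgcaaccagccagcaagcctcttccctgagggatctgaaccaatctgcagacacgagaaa
Ppy bin: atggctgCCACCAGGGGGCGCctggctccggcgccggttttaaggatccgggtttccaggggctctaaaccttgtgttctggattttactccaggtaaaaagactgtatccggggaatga
Nrp2 bin: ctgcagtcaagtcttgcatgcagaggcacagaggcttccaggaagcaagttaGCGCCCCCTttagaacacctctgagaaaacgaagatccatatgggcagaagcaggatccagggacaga

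Over the 9605 bins, median methylation was 39.1% in WT, a value set by the choice, 7.61% for *Dnmt3a* KO and 24.8% for *Dnmt3b* KO. In *Dnmt3a* KO ESCs the bins at the 10th and 90th percentile stood at 0.714% and 29.6%, and in *Dnmt3b* KO ESCs at 8.33% and 46.0%. The SD between bins was 11.8 percentage points for *Dnmt3a* KO and 14.5 for *Dnmt3b* KO. Over all bins with 4 to 14 CpGs the medians were 92.3%, 57.4% and 86.1%. Most of the low-methylated bins were therefore under 10% without DNMT3A, while most kept an intermediate level without DNMT3B. A level under 10% was found in 5601 bins (58.3%) for *Dnmt3a* KO and in 1273 bins (13.3%) for *Dnmt3b* KO, compared with 3.29% and 0.832% of all bins. The range of 10% to 50% held 40.9% of the low-methylated bins for *Dnmt3a* KO and 81.6% for *Dnmt3b* KO. Of all bins, 3.29% and 0.832% lay below this range and 66.9% and 95.4% above it, and the rest lay within it. No methylated read was seen in 700 bins for *Dnmt3a* KO and in 30 bins for *Dnmt3b* KO, compared with 0.447% and 0.118% of all bins. Over 50% were 75 and 490 low-methylated bins, compared with 66.9% and 95.4% of all bins.

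**Figure D1:**
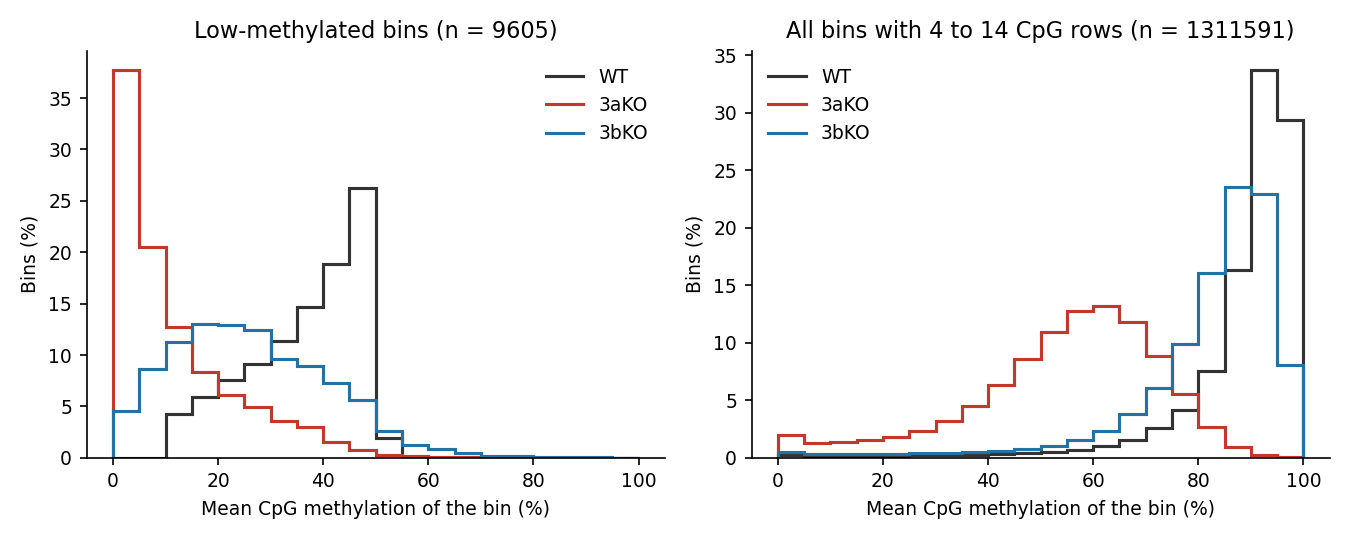
Share of bins (%) by mean CpG methylation in steps of 5 percentage points, for the 9605 low-methylated bins (left) and all 1311591 bins with 4 to 14 CpG rows (right), with 1 line per pooled table. In the left panel *Dnmt3a* KO (3aKO) piles up near 0, *Dnmt3b* KO (3bKO) spreads below 50% and the limits of WT come from the choice.

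Depth was alike in the 3 tables. The bins held 1593632 reads at their CpGs in WT, 1504834 for *Dnmt3a* KO and 1552643 for *Dnmt3b* KO, with a median of 141, 133 and 138 reads per bin. The methylated share of these reads was 37.1% for WT. It was 10.4% (10.304 to 10.401) for *Dnmt3a* KO and 25.04% (24.976 to 25.113) for *Dnmt3b* KO. At a median of about 20 reads per CpG (21.0 in WT), a single CpG has a wide interval, and reads are given for part of the bins named below.

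The KO tables were not used for the levels of the rule, and *Dnmt3a* KO can be compared with *Dnmt3b* KO ESCs without the WT reads. The median difference, *Dnmt3a* KO minus *Dnmt3b* KO, was -13.4 percentage points, from -28.7 at the 10th to -2.24 at the 90th percentile of bins. *Dnmt3a* KO was below *Dnmt3b* KO in 9021 bins (93.9%; all bins 98.4%) and above it in 573. It was lower by more than 20 percentage points in 2675 bins (27.9%), while 69.7% of all bins passed this limit. It was higher by more than 20 percentage points in 6 bins (0.0625%), compared with 0.0224% of all bins. A bin at 20% or less in *Dnmt3b* KO ESCs cannot pass the limit downwards, and the order of the low-methylated bins and all bins depended on the scale. In percentage points, the difference was smaller than the median of -26.7 over all bins. As a ratio of levels, *Dnmt3a* KO reached a median of 36.8% of the *Dnmt3b* KO level in the low-methylated bins and 67.7% over all bins, and thus was further apart in the low-methylated bins. On the log2 odds scale of the reads the medians were -1.78 and -2.22. The 95% interval of the difference of read shares (Newcombe) lay wholly below 0 in 6877 bins (71.6%; all bins 90.1%) and wholly above 0 in 88 (0.916%; all bins 0.122%). Bins against the general order were thus more frequent among the low-methylated bins on each of these counts. However, the 6 bins higher by more than 20 percentage points each had fewer than 100 reads in at least 1 genotype. The difference between the KOs in percentage points was also smaller in the low-methylated bins, and the part of counting error in these counts was not tested.

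**Figure D2:**
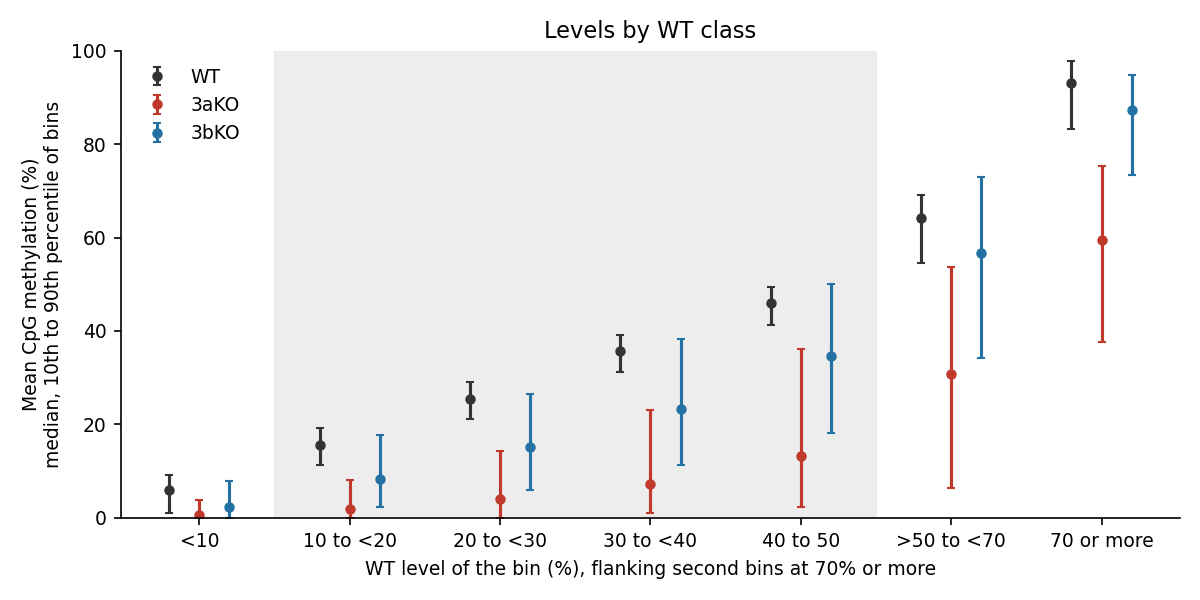
Median mean CpG methylation (%) in the 3 tables for bins with both flanks at 70% or more in WT, by WT level of the bin. Bars reach from the 10th to the 90th percentile of bins, and the shaded classes are the low-methylated bins. At each WT class the *Dnmt3a* KO median lies below the *Dnmt3b* KO median, from 1.79% against 8.25% at a WT level of 10% to under 20%, to 13.2% against 34.6% at 40% to 50%.

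Differences from WT share the reads that chose the bins and are given as a description. The median was -25.1 percentage points for *Dnmt3a* KO and -10.4 for *Dnmt3b* KO. *Dnmt3a* KO lay over 20 percentage points under WT in 6252 bins (65.1%; all bins 83.8%) and higher by as much in 17 bins (0.177%; all bins 0.00595%). *Dnmt3b* KO was lower by more than 20 in 1694 bins (17.6%; all bins 7.09%) and higher in 114 (1.19%; all bins 0.142%). Relative to the WT level, a median of 22.2% was left for *Dnmt3a* KO and 68.3% for *Dnmt3b* KO, compared with 63.2% and 93.6% over all bins. The order *Dnmt3a* KO, *Dnmt3b* KO, WT from low to high was found in 7617 bins (79.3%), and in 79.1% of all bins. To see how much the choice itself lowers WT, bins were also chosen on the plus-strand reads of WT alone. For the 7617 of these 7819 bins with a value on the minus strand, the WT median was 38.7% on the plus strand and 44.3% on the minus strand, with 7.56% for *Dnmt3a* KO and 25.9% for *Dnmt3b* KO. On the minus strand 54.5% of these bins were at 10% to 50% in WT. The median difference from the WT minus strand was -33.3 percentage points for *Dnmt3a* KO and -16.4 for *Dnmt3b* KO. These values are for another set of bins and set 1 strand of WT against both strands of the KOs. They are therefore not a correction of the differences of the 9605 bins given above.

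The levels in both KOs followed the WT level within the group. In the 983 bins at 10% to under 20% in WT *Dnmt3a* KO had a median of 1.79% and *Dnmt3b* KO of 8.25%. The 1602 bins at 20% to under 30% had 3.96% and 15.1%, and the 2502 bins at 30% to under 40% had 7.15% and 23.2%. In the 4518 bins at 40% to 50%, medians of 13.2% and 34.6% were found. The part of the WT level left in *Dnmt3a* KO ESCs had a median of 11.7% at 10% to under 20% and 29.3% at 40% to 50%. Part of this step went with bins whose WT mean was over 50% without CpGs read as unmethylated in every genotype, described below, which were 3.15% of the lowest and 45.8% of the highest of these classes. Without them the medians in *Dnmt3a* KO ESCs were 1.71%, 3.69%, 5.96% and 8.15% from the lowest to the highest class, and the parts left were 11.3% and 18.02% at the ends. At the edges of the rule, the 148 bins at 10% to 12% in WT had medians of 1.33% and 4.39%, and the 151 bins at 8% to under 10% that were not chosen had 0.960% and 4.25%. The 1245 bins at 48% to 50% had 18.5% and 40.02%, and the 1021 bins just over 50%, up to 52%, had 14.3% and 38.6%. For the flanks, 465 bins whose lower flank stood at 70% to 72% had 6.90% and 24.4%, and 382 bins at 68% to under 70% had 5.35% and 23.5%.

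A dip in methylation needs high flanks, and the flanks also fell in the KOs. The median of the 2 flanks was 89.7% in WT, by the rule, 46.4% for *Dnmt3a* KO and 81.5% for *Dnmt3b* KO. The contrast, flank minus bin, had a median of 34.3 percentage points for *Dnmt3a* KO and 54.7 for *Dnmt3b* KO, and 50.9 in WT. The bin was below both flanks in 92.2% of bins for *Dnmt3a* KO and in 98.1% for *Dnmt3b* KO, against 29.1% and 30.2% of all bins. The dips were therefore still seen in both KOs, at a lower overall level in *Dnmt3a* KO ESCs. When the same rule was applied to the *Dnmt3b* KO table it found 15159 bins, of which 5084 were among the 9605 (33.5% of its bins and 52.9% of the low-methylated bins). Applied to the *Dnmt3a* KO table it found 9249 bins, and 124 of these were shared (1.34% and 1.29%), as only 155 of the low-methylated bins kept both flanks at 70% there.

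Within 100 bp of the centre of the bins mean methylation was 34.0% for WT, 9.09% for *Dnmt3a* KO and 22.7% for *Dnmt3b* KO. It rose to 56.2%, 20.6% and 43.8% at 300 to 400 bp and to 86.5%, 41.4% and 76.5% at 700 to 1000 bp. The dip was thus seen at the bin in the 3 genotypes, and in WT its width follows from the bin and the rule on the flanks. Further out the level declined again, from 85.9%, 45.6% and 78.005% at 1 to 2 kb to 76.5%, 42.6% and 69.3% at 4 to 5 kb. The shoulder of WT lies where the rule asked for high flanks.

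**Figure D3:**
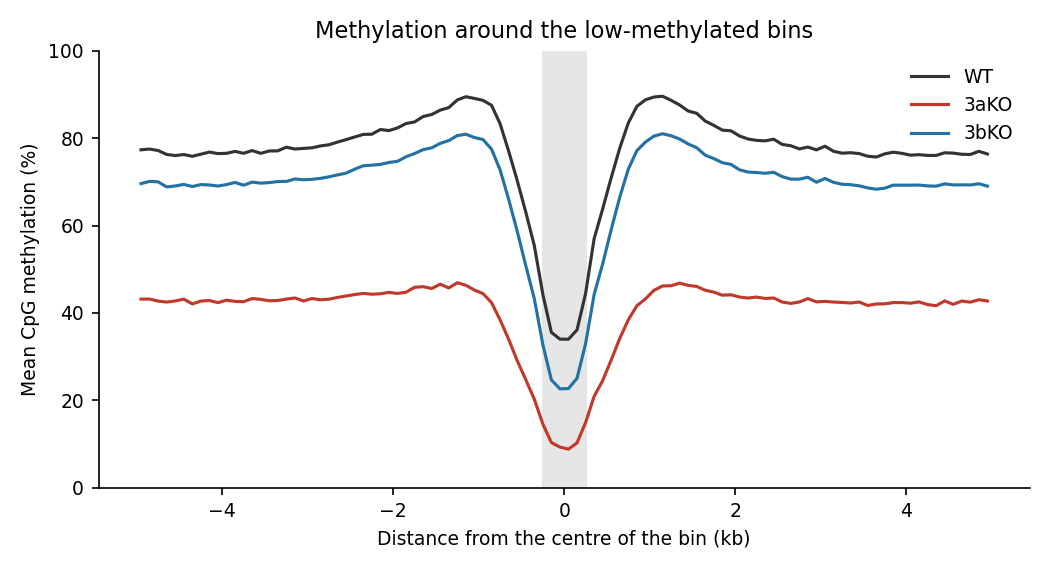
Mean CpG methylation (%) in steps of 100 bp against the distance (kb) from the centre of the 9605 low-methylated bins, with 1 line per pooled table and the bin shaded. All 3 lines fall to their minimum in the bin, at 34.0% for WT, 9.09% for *Dnmt3a* KO and 22.7% for *Dnmt3b* KO within 100 bp of the centre.

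An intermediate mean did not come from CpGs that were all intermediate. The median SD between the CpGs of a bin was 28.5 percentage points in WT, 10.9 for *Dnmt3a* KO and 24.6 for *Dnmt3b* KO. Of 70416 CpGs in the bins, 28.9% were under 10% in WT, 38.5% at 10% to under 50%, 24.1% at 50% to under 90% and 8.48% at 90% or more. The lowest class includes 10760 CpGs with no methylated read in any genotype, which are described below. Under 10% were 73.6% of the CpGs for *Dnmt3a* KO and 47.0% for *Dnmt3b* KO.

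Some bins owed their WT level to a few CpGs that were read as unmethylated in every genotype. CpGs with at least 5 reads in each table and no methylated read in any made up 15.3% of the CpGs of the low-methylated bins (10760), 1.63% over all bins and 0.557% in bins at 70% or more in WT with flanks as high. At least 1 such CpG was found in 5508 of the 9605 bins (57.3%). When these CpGs were left out, the WT mean of the other CpGs was over 50% in 2678 bins (27.9%), and 70% or more in 1170 (12.2%). A CpG of the mm9 reference that is not a CpG in strain 129S4/SvJae would be read in this way, as would a CpG that is free of methylation, and these were not told apart here. In the 2678 bins the other CpGs had medians of 65.4% for WT, 35.0% for *Dnmt3a* KO and 61.8% for *Dnmt3b* KO. Over all their CpGs, the remaining 6927 bins had medians of 35.3%, 5.27% and 20.5%. Of these bins 72.1% were under 10% in *Dnmt3a* KO ESCs. Without the unmethylated CpGs their medians were 39.1%, 5.85% and 22.8%. With the unmethylated CpGs counted, the 2678 bins had medians of 45.3%, 20.8% and 37.9%. Counted in this way, the median difference between the KOs was close to that over all members in both groups. It was -15.0 and -12.8 percentage points, and the difference passed 20 percentage points in 31.4% and 26.5% of bins. On the other CpGs of the 2678 bins the KO medians, 35.0% and 61.8%, lay further apart. This split rests on reads of all 3 tables, so that its values are a description.

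The split changed how the levels related to the number of CpGs. Over all low-methylated bins, the median in *Dnmt3a* KO ESCs was 11.7% in the 4719 bins with 4 to 6 CpGs in WT, 6.02% in 2550 bins with 7 to 9 and 5.16% in 2336 bins with 10 to 14. In *Dnmt3b* KO ESCs the medians were 29.4%, 22.8% and 20.3%. The bins with the fewest CpGs thus appeared to keep most methylation, at 31.7%, 17.99% and 16.2% of the WT level in *Dnmt3a* KO ESCs. Over all bins the same ratio was 63.3%, 63.3% and 62.1%. However, 40.2% of the bins with 4 to 6 CpGs were among the 2678, compared with 18.9% and 12.8% of the others. Without the 2678 bins the *Dnmt3a* KO medians were 6.16%, 5.13% and 4.55%, and the ratios to WT were 18.2%, 15.8% and 14.9%. Leaving out bins whose other CpGs were high can itself lower these values, so that the change is a description. With at least 100 reads in each table, and all such bins kept, the medians were 8.12%, 5.80% and 5.08%.

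The bins lay mostly away from genes' starts. Of the 9605 bins 54.7% were intergenic and 36.7% intronic, compared with 50.8% and 42.3% of all bins. Proximal promoters, within 500 bp of a transcription start site (TSS), held 299 bins (3.11%; all bins 0.656%), and distal promoters, from 500 to 3000 bp upstream, held 2.64% (all bins 2.63%). Exons held 2.89%. The median distance to the nearest protein-coding TSS was 29.5 kb, against 46.9 kb over all bins, and 2.27% overlapped a CpG island, against 0.846%. Median GC content was 47.4% against 44.6%. The bins were therefore distal on the whole, yet closer to start sites and richer in GC than other bins with 4 to 14 CpGs. They also held more CpGs, as 2336 of the 9605 had 10 to 14 in WT, against 152922 of all 1311591 bins. The name CpG-poor thus rests on the limit of 14 CpGs and not on a comparison with these bins. Those in proximal promoters were lower in each table, with medians of 30.8% for WT, 4.72% for *Dnmt3a* KO and 17.4% for *Dnmt3b* KO. By chromosome the medians ranged from 6.20% to 11.2% for *Dnmt3a* KO and from 22.7% to 28.9% for *Dnmt3b* KO, and the difference between the KOs from -14.6 to -12.5 percentage points.

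Letter runs of 12 transcription factor sites were searched on both strands of the whole bins. A match is a description of the letters and not a bound site. The CTCF core AGNNGGCGC, the site of the protein that marks insulators and loop anchors, was found in 1057 bins (11%), compared with 1.76% of all bins. Its share was 9.76% in bins under 10% in WT with high flanks, 4.21% in those over 50% to under 70% and 1.57% in those at 70% or more, and the low-methylated bins were thus close to the bins below them in WT level. The core contains a CpG and bins with more CpGs hold it more often, but the share was higher at each number of CpGs, with 7.97% against 1.01% at 4 to 6 CpGs and 15.1% against 4.67% at 10 to 14. The longer CTCF run, which needs no CpG and was added after values had been seen, was found in 4.58% of the low-methylated bins and 0.362% of all bins. The RE1 letters were found in 36 bins (0.375%) and in 0.0168% of all bins, which means that 36 of the 221 bins with these letters were low-methylated.

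Letters of the pluripotency factors were less set apart. The octamer ATGCAAAT of OCT4 was found in 4.24% of the low-methylated bins and 3.40% of all bins. The KLF letters GGGTGTGG were found in 5.18% and 3.72%, the STAT3 letters TTCCNGGAA in 1.79% and 1.47%, and the ESRRB letters AAGGTCA in 9.27% and 9.45%. The SOX letters CATTGT were less frequent than over all bins, at 23.3% against 25.7%. The GC box GGGCGG of SP1 and KLF factors was found in 17.0% against 6.95%, and in 9.13% against 4.66% at 4 to 6 CpGs. In bins under 10% in WT with high flanks the GC box was more frequent still, at 28.3%, and so was the octamer, at 8.08%, while the RE1 letters were found in 0.337% of them. For TEAD (ACATTCC) the shares were 7.87% and 6.98%, and for the E-box (CACGTG) 8.24% and 7.90%. AP-1 and GATA factors are not typical of ESCs. The AP-1 letters TGANTCA were found in 15.0% and 14.8%. For the letters of GATA, which are AGATAAG, the shares were 5.89% and 6.69%. Short runs of this kind occur by their letters alone in many bins, and shares near those of all bins say nothing about the factors.

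Around the 1105 CTCF core matches in the bins, methylation rose and fell in steps. Within 50 bp of the match it was 13.2% for WT, 1.963% for *Dnmt3a* KO and 6.86% for *Dnmt3b* KO, which includes the CpG of the core itself. From 50 to 100 bp it was 38.1%, 5.67% and 19.5%, and from 100 to 200 bp 34.1%, 6.72% and 18.9%. From 200 to 300 bp it rose to 68.3%, 24.4% and 55.6%. A further dip followed on both sides at 300 to 350 bp, with 53.7% before and 54.7% after the match in WT, between neighbours at 64.6% to 72.1%. The same dip was at 11.5% and 12.8% for *Dnmt3a* KO and at 36.7% and 38.0% for *Dnmt3b* KO. In steps of 50 bp the rises and falls came at the same positions in the 3 tables and on both sides. Over the wider spans this did not hold from 50 to 200 bp, where *Dnmt3a* KO was higher in the outer span and the others lower. Around the 24047 matches in all bins the WT level stayed between 79.7% and 84.5%. The centre of each profile lies in a bin chosen for a low WT level, so that the depth of the central dip in WT is partly set by the choice.

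**Figure D4:**
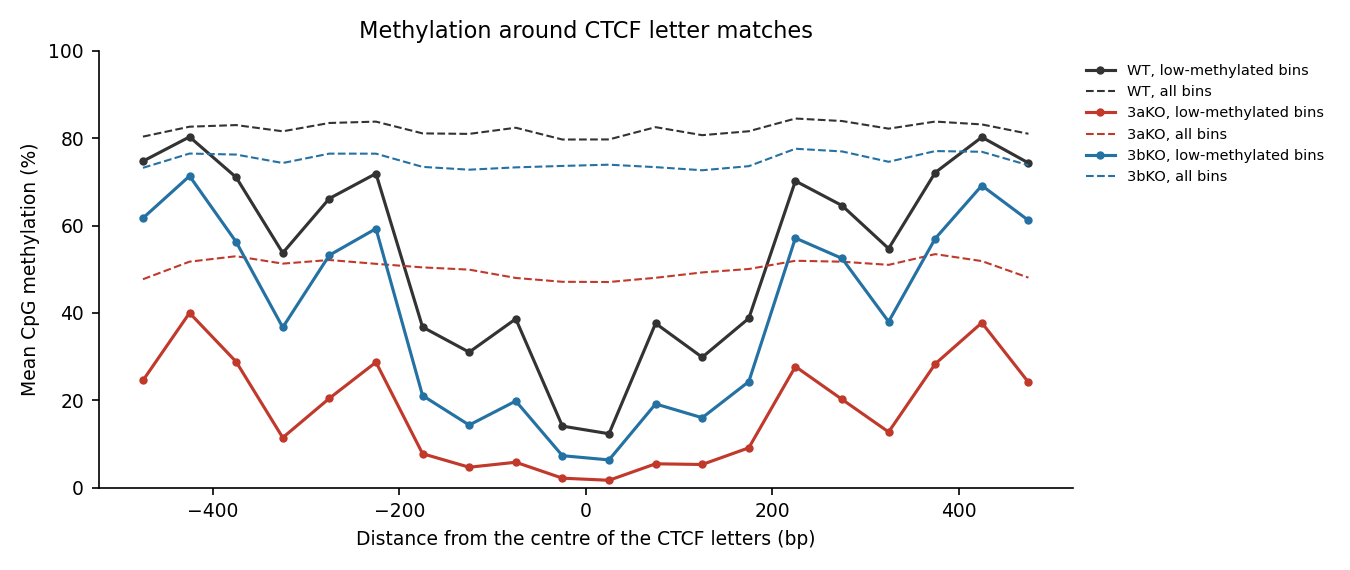
Mean CpG methylation (%) in steps of 50 bp against the distance (bp) from the centre of CTCF core letters, for 1105 matches in the low-methylated bins (solid lines) and 24047 matches in all bins (dashed lines), in the 3 pooled tables. The solid lines have a central minimum and further dips at 300 to 350 bp on both sides, at 53.7% and 54.7% in WT, and the dashed lines of WT stay between 79.7% and 84.5%.

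Around the RE1 letters a central minimum was seen as well, with few CpGs in each step. Within 50 bp of the 36 matches methylation was 15.3% for WT, 4.04% for *Dnmt3a* KO and 5.73% for *Dnmt3b* KO, and from 200 to 300 bp it was 64.1%, 28.7% and 51.3%. The sides were unlike, with 46.5% in WT at 200 to 250 bp before the match (18 CpGs) and 82.7% after it (25 CpGs). Other letters had a weaker central minimum. Around the centres of all low-methylated bins, with no letters asked, WT had 34.0% within 100 bp and 44.4% from 200 to 300 bp. A minimum around letters in these bins is thus partly set by the choice. In WT methylation around the octamer was 27.6% within 50 bp and 44.6% from 200 to 300 bp, around the KLF letters 31.0% and 46.4%, and around the GC box 25.4% and 44.9%. The flattest of these profiles was that of the ESRRB letters, with 38.2% and 46.5%. In *Dnmt3a* KO ESCs the same spans had 5.54% and 13.7% around the octamer, and 9.55% and 15.1% around the ESRRB letters. Of the RE1 bins shown above, that near *Vwc2l* lay in the proximal promoter and had 42.2% for WT, 3.58% for *Dnmt3a* KO and 10.5% for *Dnmt3b* KO, at 283, 244 and 197 reads. That near *Celf3* had read shares of 46.2%, 16.4% and 32.7%. That near *Npas4* went against the usual order, with 34.5%, 21.6% and 11.4% at 161, 197 and 228 reads, but the intervals of its read shares, 18.8% (13.9 to 24.8) for *Dnmt3a* KO and 13.6% (9.75 to 18.7) for *Dnmt3b* KO, overlapped. Among the CTCF bins shown, that near *Nrp2* was lowest in *Dnmt3a* KO ESCs, with 35.8%, 3.04% and 15.2%. The bin near *Dgcr6* had 32.9%, 12.8% and 25.4%, and that near *Ppy* 38.3%, 17.8% and 30.6%.

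Most low-methylated bins stood alone. When bins with starts at most 10 kb apart were joined, 6884 bins (71.7%) were single, 1041 pairs were found, and 198 clusters had at least 3 bins. The 639 bins in such clusters had medians of 37.2% for WT, 5.82% for *Dnmt3a* KO and 23.2% for *Dnmt3b* KO, while single bins had 39.5%, 8.21% and 25.4%. The 5 clusters of at least 5 bins lay at *Bcas1* (6 bins in 14.5 kb), at *Crb2* (5 bins in 15 kb), at *Dnajb12* and *Ddit4* (5 bins in 22 kb), and at 2 places in the *Pcdhb* array, which codes for clustered protocadherins of neurons. In the *Pcdhb2* to *Pcdhb5* stretch 6 bins within 26.0 kb had a median of 33.0% for WT, 10.9% for *Dnmt3a* KO and 21.6% for *Dnmt3b* KO, and in that of *Pcdhb16* to *Pcdhb19* 5 bins within 20 kb had 37.6%, 12.3% and 26.0%. The cluster at *Dnajb12* and *Ddit4* (chromosome 10, 59357501 to 59379500) was lowest, with medians of 24.3%, 3.45% and 10.9%, and from 0% to 7.33% in single bins in *Dnmt3a* KO ESCs.

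Genes of ESC regulation were then compared with other genes by the bins within 50 kb of their TSS. Of 43 pluripotency and ESC signalling genes on the shared part, 30 had at least 1 bin and together they had 48, which is 12.7 per 1000 bins with 4 to 14 CpGs. Germ layer and developmental regulators had 34 bins at 20 of 35 genes (12.9 per 1000) and housekeeping genes 6 bins at 4 of 13 genes (12.2 per 1000). For all protein-coding genes, 6134 bins lay at 4232 of 14279 genes (9.07 per 1000). The frequency near pluripotency genes was thus close to that near the other lists, of which housekeeping had only 6 bins, and above that near all genes. Their medians were 35.3% for WT, 4.38% for *Dnmt3a* KO and 24.2% for *Dnmt3b* KO. Near developmental regulators they were 39.7%, 4.72% and 22.8%, and near all genes 38.1%, 6.69% and 23.5%. The 6 bins near housekeeping genes had higher medians, of 43.5%, 19.1% and 33.9%, but in 4 of them (66.7%) the WT mean was over 50% without CpGs unmethylated in all tables. *Dnmt3a* KO was below *Dnmt3b* KO in 47 of the 48 bins near pluripotency genes, by more than 20 percentage points in 18 (37.5%). Near all genes it was below in 94.4% of bins and by more than 20 percentage points in 28.5%, and near developmental regulators it was below in 32 of 34 bins. The exception near pluripotency genes was the bin at *Id2*, at 24.5% for WT, 29.63% for *Dnmt3a* KO and 29.59% for *Dnmt3b* KO. In 11 of the 48 bins (22.9%) the WT mean was over 50% without the CpGs read as unmethylated in all tables, compared with 23.8% near all genes. Without them, 37 bins had medians of 33.1%, 3.40% and 21.8%.

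Of the pluripotency genes, 15 are given by the bin nearest to the TSS. They are the 13 genes with at least 2 bins, and *Dnmt3l* and *Esrrb*, which come first by symbol among those with 1 bin. These bins held from 36 to 374 reads in WT. *Manba*, which codes for a lysosomal mannosidase, had 3 bins in its introns. The nearest, with 42, 50 and 80 reads, stood at 10.5% in WT, 0% in *Dnmt3a* KO (0 of 50 reads, upper limit 7.13%) and 9.98% in *Dnmt3b* KO ESCs, and the 3 bins had 0% to 2.50% for *Dnmt3a* KO and 9.98% to 32.6% for *Dnmt3b* KO. *Nodal*, the gene of a TGF-beta ligand, had a bin 7.97 kb upstream (chromosome 10, 60872501 to 60873000) at 23.0%, 1.13% and 3.41%. *Mybl2*, a cell cycle transcription factor gene, had 2 adjoining bins, and the nearest, 6.17 kb upstream, was at 16.4%, 2.50% and 4.44%. In these nearest bins of *Nodal* and *Mybl2* both KOs were under 5%, whereas in that of *Manba* *Dnmt3b* KO was near WT. *Nodal* also had 2 bins, which ranged from 1.13% to 9.51% for *Dnmt3a* KO and from 3.41% to 24.6% for *Dnmt3b* KO. Those of *Mybl2* ranged from 0% to 2.50% and from 4.44% to 6.54%.

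In other bins *Dnmt3a* KO was well below *Dnmt3b* KO. *Zfp281*, a zinc finger gene, had an intergenic bin 19.8 kb downstream (chromosome 1, 138541001 to 138541500) with 374, 372 and 366 reads at 39.1% for WT, 4.23% for *Dnmt3a* KO and 26.8% for *Dnmt3b* KO. Its read shares were 3.76% (2.26 to 6.22) for *Dnmt3a* KO and 27.6% (23.3 to 32.4) for *Dnmt3b* KO, which do not overlap. *Sall4*, a zinc finger gene of the pluripotency network, had a bin 13.1 kb upstream at 26.3%, 4.89% and 17.7%. In that of *Pim3*, a kinase gene, 24.8%, 1.75% and 17.0% were found, and in the intronic bin of *Sox13* 38.4%, 4.37% and 25.8%. *Trim8* had 39.9%, 7.90% and 37.5%, at 45, 67 and 47 reads. The bin 1.80 kb upstream of *Tcl1*, a coactivator of AKT, had 33.6%, 11.1% and 44.6%, at only 36, 56 and 38 reads. With at least 10 reads per CpG the difference between the KOs in that bin was 1.46 percentage points, in the other direction.

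The other bins, except that of *Id3*, had a higher level in *Dnmt3a* KO ESCs. *Dnmt3l*, the gene of the inactive partner of the DNMT3 enzymes, had 1 bin 13.8 kb upstream at 49.6%, 24.2% and 41.8%. *Esrrb*, an orphan receptor gene, had an intronic bin at 33.0%, 15.8% and 24.3% (61, 108 and 117 reads), and the bin 40.1 kb downstream of *Klf4* was at 41.7%, 24.7% and 36.9%, with 37 reads in WT. At *Id3*, a target of BMP signalling with 4 bins, the nearest was at 23.8%, 5.90% and 7.56%. By reads the order of the KOs turned, with 6.98% (4.04 to 11.8) for *Dnmt3a* KO and 5.51% (2.70 to 10.9) for *Dnmt3b* KO, and the intervals overlapped. The other 3 bins of *Id3* were among those whose WT mean was over 50% without the unmethylated CpGs. The same held for the bins named at *Lin28a*, which codes for an RNA-binding protein (48.7%, 27.4% and 69.1%, at 87, 64 and 72 reads), and at *Sgk1*, a kinase gene (42.5%, 17.1% and 41.2%). In the bin of *Sgk1* 3 of 6 CpGs had no methylated read, and the other 3 had 85.05% in WT and 34.2% in *Dnmt3a* KO ESCs.

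Chosen after values were seen, the single bins of the core factors *Sox2* and *Pou5f1* are added. The bin 21.3 kb downstream of *Sox2* (chromosome 3, 34570001 to 34570500) held 11 CpGs and was at 25.3% for WT, 3.54% for *Dnmt3a* KO and 6.77% for *Dnmt3b* KO. The intergenic bin 15.2 kb upstream of *Pou5f1*, the gene of OCT4 (chromosome 17, 35627501 to 35628000), was at 33.1%, 2.16% and 34.1%, so that in *Dnmt3b* KO ESCs it was close to WT. Its read intervals were 1.67 to 10.4 for *Dnmt3a* KO and 21.6 to 37.8 for *Dnmt3b* KO. Both bins were low in *Dnmt3a* KO ESCs, and they differed in *Dnmt3b* KO ESCs.

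**Figure D5:**
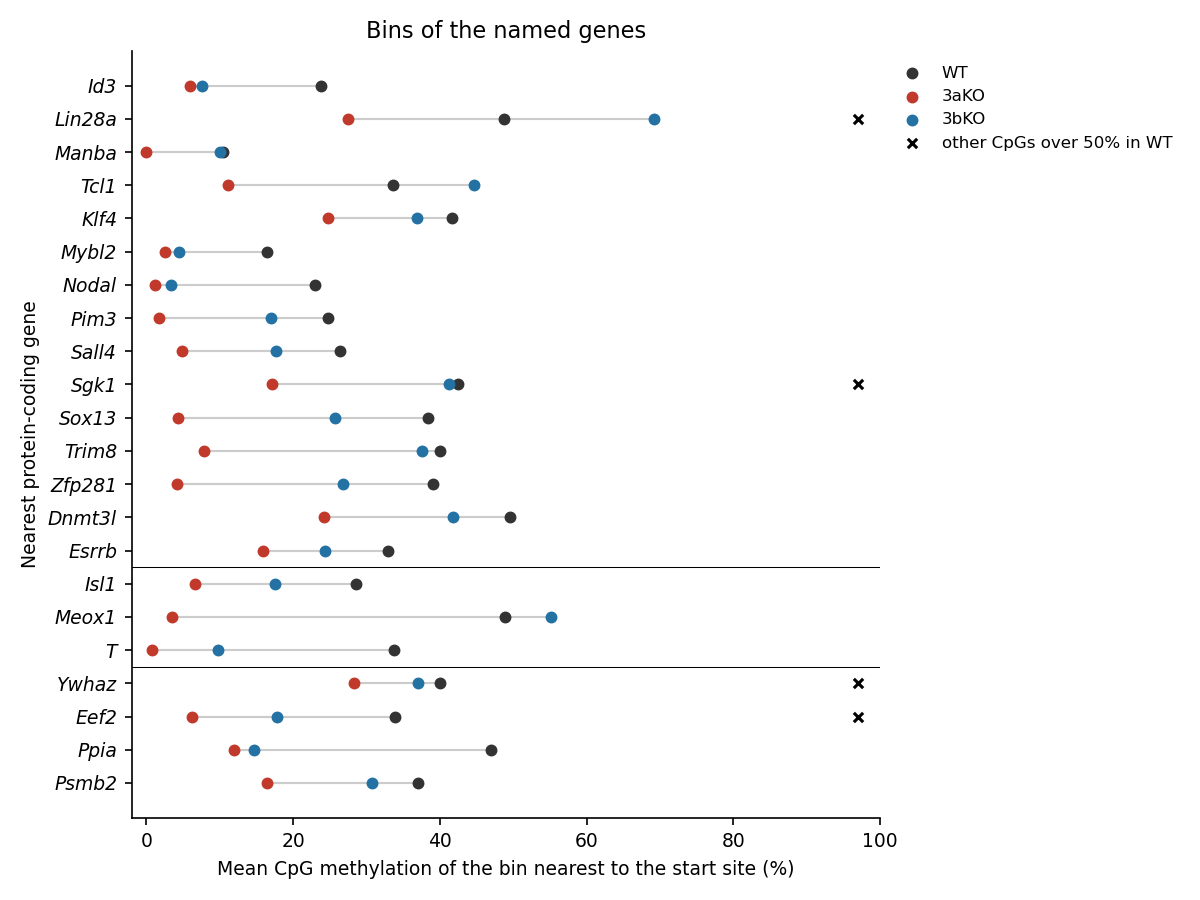
Mean CpG methylation (%) in the 3 pooled tables of the bin nearest to the TSS of the named genes, with pluripotency, developmental and housekeeping genes from top to bottom. A cross marks bins whose WT mean was over 50% without CpGs that were unmethylated in all tables. *Dnmt3a* KO is the lowest point in each row, from 0% at *Manba* to 28.2% at *Ywhaz*.

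Near developmental regulators, *Isl1*, a homeobox gene of heart and motor neurons, had most bins (4), and the intronic one nearest to its TSS was at 28.6% for WT, 6.68% for *Dnmt3a* KO and 17.6% for *Dnmt3b* KO. *T*, the mesoderm regulator brachyury, had 3 bins, at 0.781% to 26.1% for *Dnmt3a* KO and 9.79% to 39.6% for *Dnmt3b* KO. The nearest, 25.5 kb upstream, was at 33.7%, 0.781% and 9.79%, with 119, 78 and 73 reads. *Meox1*, a somite homeobox gene, differed most between the KOs, with 48.9%, 3.45% and 55.1%. In these nearest bins *Dnmt3a* KO was lowest. *Dnmt3b* KO was below WT in them except in that of *Meox1*. There the read shares of WT and *Dnmt3b* KO were 56.9% and 52.3%. Near housekeeping genes the values were 47.0%, 12% and 14.6% at *Ppia*, 37.0%, 16.4% and 30.7% at *Psmb2*, 33.8%, 6.21% and 17.9% at *Eef2* and 40%, 28.2% and 37.0% at *Ywhaz*. In the bin of *Ywhaz* 3 of 5 CpGs had no methylated read in any table, and at *Eef2* 5 of 9.

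Among the 5446 bins with at least 100 reads in each genotype, *Dnmt3a* KO was below *Dnmt3b* KO in 5219 (95.8%) and above it in 225. Over all bins, at any depth, it was below in 98.4%. The most negative difference was -69.6 percentage points, in a bin 17.0 kb upstream of the gene model *Rpl30-ps6* (chromosome 1, 88353001 to 88353500), with 38.5% for WT, 1.98% for *Dnmt3a* KO and 71.6% for *Dnmt3b* KO. The bin 3.05 kb upstream of *Hnrnpc*, the gene of an RNA-binding protein, followed with 42.3%, 1.56% and 62.6%, at 393, 340 and 264 reads. Bins 13.5 kb upstream of *Itpr3* (45.5%, 2.37% and 61.7%), 66.5 kb upstream of *B3gnt7* (48.2%, 0.347% and 59.6%) and 15.0 kb downstream of the TSS of *Snx18* (41.9%, 7.60% and 66.8%) came next. *Dnmt3b* KO stood above WT in these 5 bins, a direction that the choice favours, since WT was limited to 50%. The bins were also picked as extremes. The intervals do not take this into account, so that they are a description. By reads, the intervals of WT and *Dnmt3b* KO did not overlap at *Rpl30-ps6*, with 37.9% (30.1 to 46.4) and 66.4% (57.5 to 74.2). They were also apart at *Hnrnpc*, with 40.2% (35.5 to 45.1) and 60.2% (54.2 to 65.9), and at *Snx18*, with 49.7% (41.7 to 57.6) and 65.5% (59.5 to 71.04). They overlapped at *Itpr3*, with 56.9% (48.1 to 65.3) and 58.9% (51.1 to 66.2), and at *B3gnt7*, with 49.0% (42.3 to 55.8) and 58.9% (52.6 to 64.9). The read shares of WT and *Dnmt3b* KO come from unequal numbers of CpGs at *Hnrnpc* (12 and 11), *Itpr3* (6 and 8) and *Snx18* (7 and 8).

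In the opposite direction the differences among these bins of at least 100 reads reached 18.7 percentage points, in an intergenic bin 167 kb downstream of the TSS of *Phlda1*, the nearest one. The bin near *2610528J11Rik*, in the proximal promoter, had 28.7% for WT, 29.4% for *Dnmt3a* KO and 14.1% for *Dnmt3b* KO, with read shares of 32.4% (27.4 to 37.9) and 13.0% (9.29 to 17.8). In the bins of *Phlda1* (28.4%, 25.7% and 6.98%) and *Tdrd6* (32.8%, 24.9% and 8.52%) the KOs were closer by reads. Their read shares in *Dnmt3a* KO and *Dnmt3b* KO ESCs were 15.0% (9.42 to 22.9) and 5.47% (2.67 to 10.9) in the first, and 10.7% (6.78 to 16.5) and 9.47% (6.08 to 14.5) in the second, and the intervals overlapped in both bins. The bin near *Cd244*, an immune receptor gene, had 41.2%, 55.3% and 39.1%. It was also among the 5 highest in *Dnmt3a* KO ESCs, with bins 13.5 kb upstream of *Lypd1* (43.3%, 72.7% and 73.6%) and 37.1 kb upstream of *Insig2* (48.5%, 58.2% and 64.7%). The other two lay far from the nearest TSS, 245 kb downstream for *Tssc1* (42.5%, 62.5% and 65.1%) and 124 kb downstream, in an intron, for *Kcnj6* (34.8%, 54.0% and 45.3%). *Dnmt3a* KO was above WT in these 5 bins, which the limit of 50% on WT favours. The intervals of bins picked as extremes do not take that choice into account and are a description. By reads, WT and *Dnmt3a* KO were apart at *Kcnj6*, with 20.8% (15.5 to 27.3) and 57.7% (48.1 to 66.7). At *Tssc1* they had 33.6% (25.8 to 42.5) and 61.7% (53.1 to 69.7), and at *Lypd1* 53.5% (45.3 to 61.4) and 73.5% (65.4 to 80.3), again without overlap. The intervals overlapped at *Insig2*, with 45.8% and 57.1%, and at *Cd244*, with 48.4% and 48.2%. The bin of *Lypd1* held 8 CpGs in WT and 11 in each KO, so that its read shares come from unequal sets of CpGs. The same holds for the bin of *Tdrd6*, with 6 CpGs in WT, 9 for *Dnmt3a* KO and 7 for *Dnmt3b* KO. The bin of *Kcnj6* held 11 CpGs in WT, 9 for *Dnmt3a* KO and 13 for *Dnmt3b* KO. Of these, 3 had no methylated read in any genotype. In this bin the order of the KOs turned when CpGs needed 3 reads (-4.74 percentage points) or 5 reads in all tables (-8.04).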

How the data were processed

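Bisulfite-treated genomic DNA of J1 ESCs was sequenced in 9 libraries, 3 for each of 3 genotypes. Read pairs were aligned to mm9 by the authors with BSMAP. End-repair bases, clonal reads and overlapping mates were taken out with BSeQC, and CpGs were called with mCall of MOABS, with versions not given in the sources used here. The deposited counts are all reads and methylated reads over each CpG, in total and by strand, without normalization, and join the libraries of a genotype in 1 table. The deposited ratio is a fraction, methylated reads divided by all reads, rounded by the authors, and here it was recomputed from the counts. There were 13882752 CpGs listed for WT, 20688369 for *Dnmt3a* KO and 20699170 for *Dnmt3b* KO. For WT, 1 incomplete row at the end was not used and the list stops at position 140865857 of chromosome 4, so that 14 chromosomes were used; the rest was not analysed here.

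The level of a bin was the mean of the ratios of its CpGs with at least 5 reads, and a flanking bin needed 1 such CpG. Genes came from GENCODE M1 on the same build, with protein-coding genes placed by the start of their longest isoform. CpG islands were found in the sequence, as stretches of 500 bp or more with 55% GC and an observed over expected ratio of 0.65. Log2 odds were taken with 0.5 added to both read numbers. Python 3.11.15, NumPy 2.4.6, pandas 2.3.3, SciPy 1.17.1 and matplotlib 3.10.9 were used, and the rule was tested on simulated data for chromosome 19.

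No test was made, because each genotype is 1 pooled value. The bins and the gene and motif lists were chosen with earlier results of these data known. Named were the 15 pluripotency genes and 4 genes of each other list with most bins (ties by symbol), the bins with the most extreme difference between the KOs or the highest level in *Dnmt3a* KO ESCs among those with at least 100 reads in each table, and the 5 largest clusters. Of these, 2 bins are not reported here. Sequences are from the mm9 reference. Alternatives covered the reads per CpG, the weighting, the grid, the flanks, the genomic place, CpGs of over 500 reads and the strand.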

Additional observations from a re-analysis of the deposited data

How the results depend on the processing

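The difference between the KOs had a negative median under each alternative tried. With at least 3 reads per CpG *Dnmt3a* KO had a median of 8.82% and *Dnmt3b* KO of 26.2%, with contrasts of 33.8 and 53.4 points, and with at least 10 reads 6.14%, 22.5%, 35.4 and 57.1, with a difference between the KOs of -13.0. With methylated reads divided by all reads they were 6.85% and 23.4%, with a contrast of 55.8 in *Dnmt3b* KO and a share of 29.2%. With CpGs of 5 reads in all tables the values were 7.31%, 24.2%, -13.2, 34.9, 55.7 and a share of 26.6%. Away from start sites and CpG islands the medians were 7.91% and 25.3%. With flanks of at least 4 CpGs only 4360 bins were left, at 6.63% and 23.6%, a contrast of 55.7 in *Dnmt3b* KO and a share of 29.3%. Choice on the WT plus strand gave 26.0% in *Dnmt3b* KO, -14.8, 33.2, 52.6 and a share of 34.3%. The share was 63.6% at 10 points, 8.45% at 30 points and 71.6% by the interval of the read shares. Without CpGs unmethylated in all 3 tables, a setting chosen after seeing the data, 8132 bins had 5.001%, 20.6%, -12.9, 35.4 and 58.4. Without the 2678 bins lifted over 50%, chosen likewise, the values were 5.27%, 20.5%, -12.8, 35.8, 58.5 and a share of 26.5%. With the grid shifted by 250 bp, 9598 bins had a median of 7.62% in *Dnmt3a* KO and a difference of -13.6, and without CpGs of over 500 reads 9611 bins had 7.61% and -13.4.

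The share of bins with CTCF letters ranged from 10.03% to 13.0% in the alternatives for choosing bins, and was 4.58% with the longer run, also chosen after seeing the data. Of 222 differences between the KOs in the 37 named bins, 10 had the other sign. In 3 of these the interval of the bin's own reads excluded 0, namely *Kcnj6* at -4.74 (3 reads per CpG) and -8.04 points (5 reads in all tables), and *Tcl1* at 1.46 points (10 reads).

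No paired analysis was possible because a genotype has 1 table that joins its 3 libraries, and leaving out a library was not possible either. The alternative without repeats was not run, since the reference marks none. With about 20 reads per CpG, single CpGs are measured loosely, and depth limits statements on single bins of few reads. The variation between cultures is not known, as each genotype is 1 pooled value.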
